A study of Mus musculus with 12 samples.

Results

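Loss of the histone deacetylase gene Hdac2 on its own was compared with wild type in the cardiac ventricle of mouse embryos at embryonic day 16.5. The comparison takes 3 arrays of Hdac2-null hearts and 3 arrays of wild-type hearts from a series of 12 arrays, chosen by the genotype in their labels, and covers all 9667 genes whose signal exceeded a low floor on at least 1 array. The other 6 arrays are 3 Hopx-null and 3 double-null hearts, which lack Hopx alone or Hopx and Hdac2 together, and they are used here as a second place to look at the loss of Hdac2. The series asked what deficiency of either gene does to the embryonic heart. All 4 groups are of the same tissue and day, and no group received a treatment. The labels name the genotypes as wild type or null and give neither a promoter nor a recombinase. The sources used here give no allele design, strain or parentage. The series' design text describes 3 independent ventricles per genotype, and the labels call them biological replicates. The litters are not given, so the p-values measure the spread between these ventricles, whatever its source.

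Hdac2 is a class I histone deacetylase, an enzyme that removes acetyl groups from lysines of histone tails and of some other proteins. It works with its close relative Hdac1 inside large complexes, among them Sin3, NuRD and CoREST, that DNA-binding repressors bring to promoters and enhancers, and genes held down by such complexes are the ones that can become active when they are lost. In the developing heart, class I deacetylases are known for restraining gene programmes of other tissues and for controlling how heart muscle cells grow and divide. Troponin I, which recurs below, is the inhibitory subunit of the troponin complex on the thin filament of striated muscle, and it is made from separate genes in slow skeletal muscle (Tnni1), fast skeletal muscle (Tnni2) and heart (Tnni3).

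Each array gives 1 signal per probe set, in arbitrary units on a linear scale. Between 37.59% and 37.79% of probe sets on the wild-type arrays, and between 37.8% and 37.89% on the Hdac2-null arrays, exceeded the floor of 82.5 units. Log2 signals of the 6 arrays correlated with each other at Pearson's r of 0.978 to 0.993 across genes. All 10 genes of a ventricular cardiomyocyte list were measured above the floor. Myl2, the ventricular regulatory light chain, was between 38459 and 38794 units on the 6 arrays. Of 10 atrial markers 9 also exceeded the floor on at least 1 array, so passing it does not by itself tell ventricle from atrium. The sexes were not balanced. Xist, the RNA that coats the inactive X chromosome, was 6016 and 6130 on wild type 1 and 2 and 6108 on Hdac2-null 1, and at most 9.50 on wild type 3 and Hdac2-null 2 and 3. The Y-linked gene Eif2s3y was 7856 on wild type 3, 7204 on Hdac2-null 2 and 1708 on Hdac2-null 3. Hdac2-null 3 also stood apart in liver RNA: Alb, the albumin gene, was 176 there and at most 4.35 on the other 5 arrays. In whole tissue, fewer cells of a type and less RNA in each of its cells cannot be told apart.

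Hdac2 signal was at background on every Hdac2-null array. It was 4717, 4604 and 5195 units in the wild-type ventricles and 4.05, 4.04 and 4.05 in the Hdac2-null ones. The groups lay far apart. The mean fell from 4839 ± 314 (SD, n = 3) to 4.05 ± 0.0049, at least 58.6-fold (log2 -5.87, SE 0.11, adjusted p = 1.01e-10). The same held where Hopx was absent: double-null ventricles measured 4.07, 4.06 and 4.32 against 5683, 4442 and 4586 in Hopx-null ones. Whether these probe sets fall inside the deleted stretch could not be read from the sources used here.

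No other deacetylase and no partner protein of Hdac2 passed the test. Of 17 histone deacetylases and sirtuins 15 were tested, 6 with a log2 fold change above 0 and 9 below, and Hdac2 was the only member called; over all genes, 0.0207% were called (2 of 9667, at an adjusted p under 0.05). The list's median was -0.0328 against -0.0143 over all genes. Hdac1, the closest relative and the partner of Hdac2 in its complexes, was 3225, 3578 and 4069 in wild type and 3804, 3840 and 3774 in Hdac2-null ventricles. Its null values lay inside the wild-type range, and the 95% interval of its log2 fold change ran from -0.11 to 0.26. Hdac3, the deacetylase of the NCoR complex, measured log2 -0.12 (SE 0.20), with a wide interval of -0.56 to 0.31. Hdac7 was the single gene of the list with all null arrays above all wild-type ones, by a log2 of 0.07.

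Of 34 subunits and recruiting factors of the Hdac1 and Hdac2 complexes, 27 were tested and 0 were called, with 19 above 0 and 7 below, where 44.1% of all genes were above 0 and 55.1% below. Their log2 fold changes ran only from -0.168 to 0.204, with a median of 0.0298. Rest, the repressor that brings CoREST and Sin3 to neuronal genes, was 7759, 8708 and 9465 in wild type and 9294, 10476 and 9519 in Hdac2-null ventricles, which overlap (log2 0.18, SE 0.07, adjusted p = 0.925). Gatad2a of NuRD and Kdm1a, the lysine demethylase of CoREST, had higher values on all 3 null arrays (log2 0.13, SE 0.07, and 0.17, SE 0.09), and Rcor3 of CoREST had lower ones (log2 -0.11, SE 0.05), a direction that turned to 0.24 with the mean over all its probe sets. None of the 3 passed the test.

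Across the genome the comparison was nearly flat. Apart from Hdac2, 1 gene was called, Tnni2, which rose, so 0.0103% of genes were called in each direction. The median absolute log2 fold change was 0.0775, the 90th percentile was 0.267, and the median SE was 0.111. For 7960 genes, 82.3% of those tested, the whole 95% interval lay within 1.5-fold either way, and for 95.4% it lay within 2-fold. These shares include dim genes, whose differences are understated because lower signals were raised to the floor. Of all genes, 494 (5.11%) came under an unadjusted p of 0.05, 205 higher (2.12%) and 289 lower (2.99%), and 483 would be expected with no change anywhere. A log2 fold change past 2-fold was measured for 33 genes (0.341%), 14 higher (0.145%) and 19 lower (0.197%). Of those 14, 6 had all null arrays above all wild-type arrays, where 3.89% of all genes did. Of the 19, 7 had them all below, where 5.69% of all genes did. The size of a difference and its overlap were read from the same 6 arrays.

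**Figure D1:**
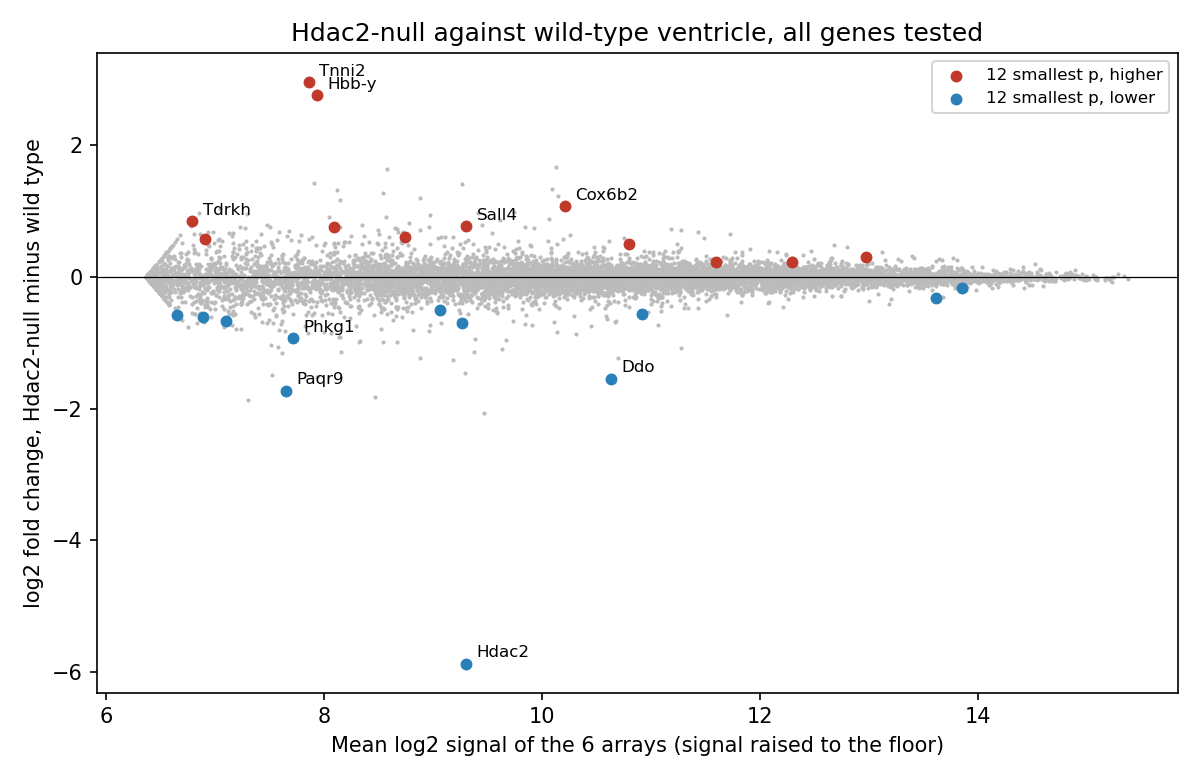
Each point is 1 of 9667 genes in Hdac2-null against wild-type ventricles (3 arrays each), with the mean log2 signal on the x axis and the log2 fold change on the y axis, and the 12 smallest p in each direction in red (higher) and blue (lower). Hdac2 at -5.87 and Tnni2 at 2.96 are the called genes, and Hbb-y at 2.76 did not pass.

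Tnni2, which makes the troponin I of fast skeletal fibres, was the one gene that rose. It was 27.7, 45.0 and 84.6 units in the wild-type ventricles and 439, 665 and 926 in the Hdac2-null ones. Wild type 3 was the only wild-type array above the floor, all 3 null arrays were well above it, and the groups did not overlap. The mean went from 52.4 ± 29.2 to 676.5 ± 244 (SD, n = 3 each), 7.77-fold after the floor (log2 2.96, 95% interval 2.35 to 3.56, adjusted p = 0.00189). On the other 6 arrays, which share none with this comparison, Tnni2 was 134, 39.1 and 23.3 in Hopx-null and 364, 551 and 549.9 in double-null ventricles. There too the loss of Hdac2 went with a rise (log2 2.31, SE 0.27, adjusted p = 0.0215), as 1 of 2 genes called among all (0.0207%), the other being Hdac2. Only Hdac2 was called there with the floor doubled, without a floor, with the mean over probe sets, in a fit of those 6 arrays alone, and without any 1 of Hopx-null 2, Hopx-null 3, double-null 2 and double-null 3. The difference between both rises was -0.65 (SE 0.39, adjusted p = 0.942). A second Tnni2 probe set had lower signals, 24.2, 37.3 and 39.0 in wild type and 76.7, 101 and 151 in Hdac2-null ventricles, again without overlap. The call rests on the brighter probe set and on the floor: with the mean over all probe sets of the gene the log2 fold change was 1.12 (adjusted p = 0.122), and with no floor it was 3.77 (adjusted p = 0.164).

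Tnni2 was the only gene of the skeletal muscle programme that was called. Of 34 genes of a skeletal muscle list, 22 were at the floor on all 12 arrays, with no signal above 19.7 units. Among the 12 tested, 3 had a log2 fold change above 0 and 9 below, and the median was -0.179. Of 9 skeletal muscle marker genes, 8 were at or below 6.09 units on every array. The ninth, Ckm, the muscle creatine kinase that heart muscle also makes, measured log2 -0.02. Myl1, the fast skeletal light chain also made in embryonic heart muscle, was 558, 256 and 324 in wild type and 268, 212 and 140.0 in Hdac2-null ventricles, which overlap (log2 -0.85, SE 0.38, adjusted p = 0.925). Skeletal alpha-actin, Acta1, was 665, 2345 and 2189 against 342, 978 and 1786, again with overlap. The troponin I genes of slow muscle and heart did not pass. Tnni1 was 22978, 21981 and 22696 in wild type and 23054, 23880.1 and 23244 in Hdac2-null ventricles, a log2 of 0.05 (SE 0.04), and Tnni3 was 21967, 21480 and 18614 against 20002, 19474 and 20959.5.

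None of the genes tested around Tnni2 on its chromosome passed the test. Of the 6 tested genes on each side, 12 in all, 0 were called and 0 had groups without overlap, and their median log2 fold change was 0.0265. Of the 12, 8 were above 0 and 4 below. An unadjusted p under 0.05 was reached by 2 of them, Lsp1 and Igf2, where 5.11% of all genes reached it. In double-null against Hopx-null 2 of the 12 reached it, and 0 did so with the same sign in both. Lsp1, a leukocyte actin-binding protein, measured log2 0.50 (SE 0.20, adjusted p = 0.925), or 0.22 without wild type 1. Igf2, the imprinted growth factor, measured 0.11 (SE 0.04, adjusted p = 0.925). Of 15 imprinted genes of that chromosome, 8 were tested, 4 on each side of 0 and 0 called (median 0.0182). The 24 tested genes nearest to Hdac2, 12 on each side, gave 0 calls, with 8 above 0 and 15 below and a median of -0.0205. Groups did not overlap for 3 of the 24, where 9.58% of all genes had groups without overlap. At an unadjusted p under 0.05 there were 2 of the 24 in this comparison and 4 in double-null against Hopx-null, and 0 reached it with the same sign in both. Just outside this window, 13 tested genes from Hdac2, lies Ddo. It was lower at an unadjusted p under 0.05 in both comparisons (log2 -1.55 and -0.89), and its values are given below. The part of the position beside Hdac2 in the Ddo difference was not tested.

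**Figure D2:**
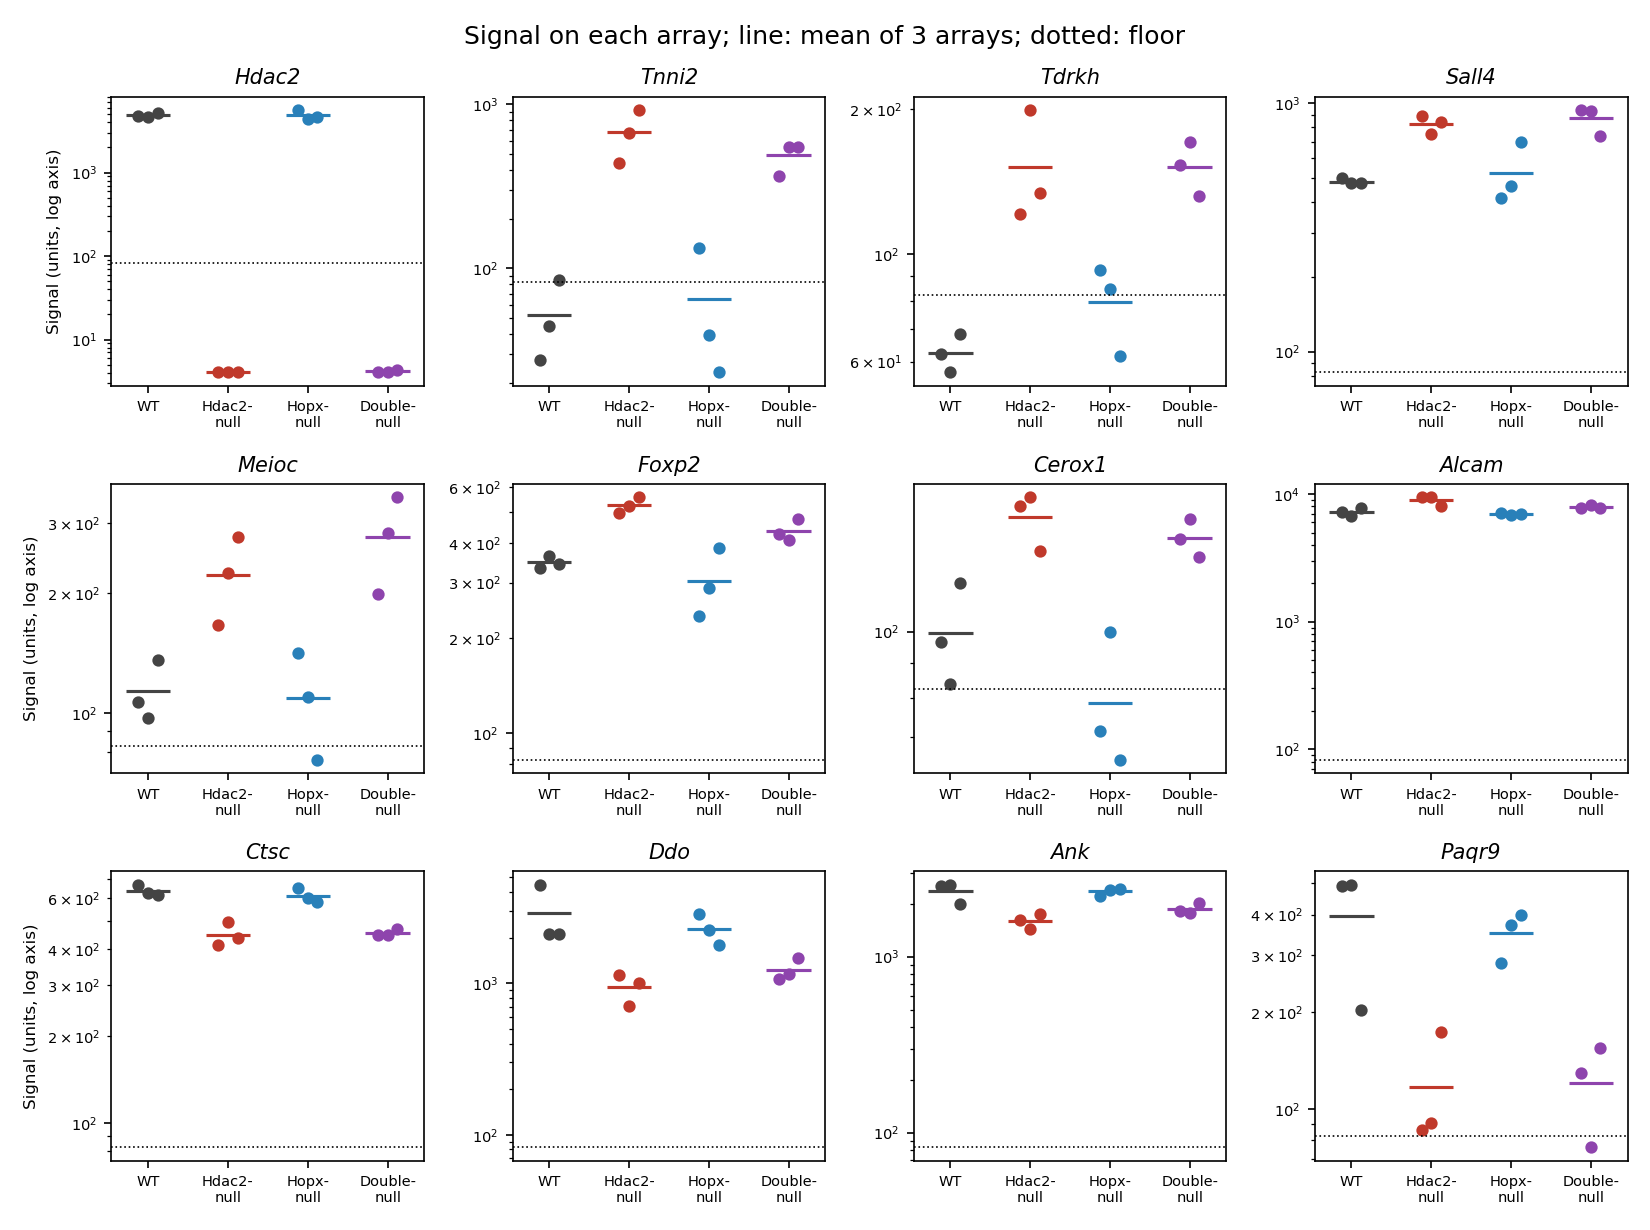
Signal in units on a log axis for 12 genes, 1 point per array and 3 arrays per genotype, with the mean as a line and the floor of 82.5 units dotted. On the probe set plotted for each gene, the arrays without Hdac2 lie on 1 side of those with it in both backgrounds. The genes were chosen after their values were seen, and the gap is widest for Hdac2 and Tnni2.

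The genes next in line did not pass the test, and their values are given as measurements. The named genes are the 12 with the smallest p in each direction, and below Tnni2 and Hdac2 their adjusted p lay between 0.411 and 0.892. Among the higher ones, some are known from germ cells or early embryos. Tdrkh, a tudor-domain protein that tethers the piRNA machinery of germ cells to mitochondria, was 62.2, 57.0 and 68.3 in wild type and 121, 199 and 134 in Hdac2-null ventricles. All wild-type arrays were under the floor and all null arrays above it, at least 1.79-fold higher (log2 0.84, SE 0.16, adjusted p = 0.411). Sall4, a zinc-finger factor of early embryonic and germ cells that recruits NuRD, was 498, 479 and 475 against 886, 754 and 840.0, without overlap (log2 0.77, SE 0.18, adjusted p = 0.81). Foxp2, a forkhead transcription factor, was 334, 364 and 344 against 498, 523 and 559, without overlap (log2 0.60, SE 0.16, adjusted p = 0.892). A second Foxp2 probe set of similar signal gave 373, 344 and 342 against 364, 397 and 483, with overlap (log2 0.22).

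Other genes on the higher side had roles in metabolism, trafficking and adhesion. Ftcd, an enzyme of histidine and folate metabolism, was 204, 243 and 185 in wild type and 337, 409 and 322 in Hdac2-null ventricles (log2 0.76, SE 0.14, adjusted p = 0.411). Alcam, a cell adhesion molecule of the immunoglobulin family, was 7281, 6773 and 7768 against 9411, 9472 and 8100 (log2 0.30, SE 0.07, adjusted p = 0.721). Neither gene had overlapping groups on the probe set used. A dimmer Alcam probe set was 84.1, 101.9 and 141.7 against 216.1, 264.6 and 150.3, without overlap (log2 0.941). Dimmer ones with a log2 of 0.521 and 0.571 overlapped narrowly, each through Hdac2-null 3. Cox6b2, the testis isoform of a cytochrome c oxidase subunit, was 614, 717 and 1227 against 1435, 2058 and 1718 (log2 1.08, SE 0.28). Rab4a, a small GTPase of recycling endosomes, was 1246, 1617 and 1665 against 1886, 2356 and 2157 (log2 0.51, SE 0.13). The noncoding RNA Cerox1 was 96.7, 83.9 and 118 against 152, 157 and 131 (log2 0.57, SE 0.14). In all 3 genes the lowest null array was above the highest wild-type array. Ccdc50 (log2 0.22, SE 0.06) and Ripor2 (log2 0.23, SE 0.06) had small differences with no overlap.

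Hbb-y, the embryonic beta-like globin of primitive red cells, had a large difference, and the arrays within each group were far apart. It was 7.66, 4.84 and 123 in wild type and 1209, 985 and 219 in Hdac2-null ventricles (log2 2.76, SE 0.69, adjusted p = 0.892). On the other arrays Hopx-null ventricles measured 427, 4.89 and 5.69 and double-null ones 47.4, 16.2 and 64.7 (log2 -0.79, SE 0.69). Of 9 erythroid marker genes only 3 were tested. Their summed signal, Hbb-y included, was 226 to 467 units over the wild-type arrays and 547 to 1605 over the Hdac2-null arrays. Of the other tested members, Alas2 was 144, 144 and 259 in wild type and 303, 154 and 236 in Hdac2-null ventricles. Slc4a1 was 94.0, 77.1 and 85.2 against 92.6, 79.3 and 92.2, and both genes had overlapping groups. The other globin genes of the list with a probe set, Hba-a1, Hba-x and Hbb-bh1, were under the floor on all arrays. The part of red cell content in the Hbb-y difference was not tested.

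On the lower side stood lysosomal, amino acid and membrane genes. Ctsc, the lysosomal protease cathepsin C that activates serine proteases of immune cells, was 668, 624 and 618 in wild type and 415, 495 and 436 in Hdac2-null ventricles (log2 -0.51, SE 0.10, adjusted p = 0.411). Ddo, the peroxisomal enzyme that breaks down D-aspartate, was 4475, 2114 and 2108 against 1125, 706 and 1007 (log2 -1.55, SE 0.30, adjusted p = 0.411). Neither had overlapping groups, and wild type 1 was far above the other wild-type arrays for Ddo. A second Ddo probe set gave 328, 160 and 138 against 53.2, 63.2 and 59.8, the same order. Ddo lies on the chromosome of Hdac2, 13 tested genes away. Paqr9, a membrane receptor of the progestin and adipoQ receptor family, was 489, 495 and 202 against 85.9, 90.6 and 173 (log2 -1.73, SE 0.38, adjusted p = 0.721). Ank, which exports pyrophosphate and limits mineral deposition, was 2530, 2565 and 1997 against 1616, 1435 and 1736 (log2 -0.56, SE 0.11, adjusted p = 0.411). In both genes every null array was below every wild-type array.

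Fermt3, the kindlin that activates integrins in blood cells, was 851, 873 and 645 in wild type and 509.9, 495 and 444 in Hdac2-null ventricles (log2 -0.70, SE 0.15). Phkg1, the catalytic subunit of muscle phosphorylase kinase, was 243, 368 and 271 against 130.03, 141 and 190.2 (log2 -0.93, SE 0.21). Insig1, which retains the sterol sensor SCAP in the endoplasmic reticulum, was 15160, 14574 and 12638 against 12238, 10219.7 and 11294 (log2 -0.33, SE 0.07). All 3 separated the groups, with an adjusted p of 0.721 each. Klhl32 was 124, 139 and 107 against 40.3, 14.3 and 78.4, under the floor on every null array and at least 1.49-fold lower (adjusted p = 0.411). Plcg2, a phospholipase C of immune cells, measured log2 -0.67 (SE 0.17), the pseudogene Zfp133-ps -0.61 (SE 0.15) and Tmem109 -0.17 (SE 0.04).

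The promoters of 4 of these genes are shown because their groups did not overlap in either background on the probe set used. Promoters of 2 higher and 2 lower genes are given, picked after their values were seen. They run from 250 bases before to 50 bases after the gene start, taken from RefSeq on GRCm38.p6 and printed 5′ to 3′ along the gene. Capitals mark CCAAT and GGGCGG on either strand, the letters of the CCAAT box and of the GC box that Sp1 recognises.
Tdrkh, chr3:94412994-94413293, plus strand: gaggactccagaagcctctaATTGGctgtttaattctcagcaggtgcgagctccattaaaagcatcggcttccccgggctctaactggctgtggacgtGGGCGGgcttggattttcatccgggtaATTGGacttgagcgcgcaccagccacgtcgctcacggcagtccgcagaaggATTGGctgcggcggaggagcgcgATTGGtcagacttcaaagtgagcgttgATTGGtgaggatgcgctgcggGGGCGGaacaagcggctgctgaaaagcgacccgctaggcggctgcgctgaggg
Alcam, chr16:52453032-52453331, minus strand: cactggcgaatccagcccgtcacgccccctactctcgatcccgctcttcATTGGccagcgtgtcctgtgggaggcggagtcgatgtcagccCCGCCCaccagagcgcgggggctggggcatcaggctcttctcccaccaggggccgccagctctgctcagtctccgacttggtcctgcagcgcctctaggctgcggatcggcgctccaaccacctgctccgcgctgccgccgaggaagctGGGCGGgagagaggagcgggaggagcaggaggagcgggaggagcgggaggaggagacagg
Ctsc, chr7:88277835-88278134, plus strand: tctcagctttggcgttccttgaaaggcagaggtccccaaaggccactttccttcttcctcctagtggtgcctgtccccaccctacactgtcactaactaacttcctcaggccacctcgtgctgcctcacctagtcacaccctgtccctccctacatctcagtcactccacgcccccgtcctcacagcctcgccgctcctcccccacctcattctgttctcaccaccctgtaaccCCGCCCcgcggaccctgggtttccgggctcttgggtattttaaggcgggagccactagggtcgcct
Ddo, chr10:40629761-40630060, plus strand: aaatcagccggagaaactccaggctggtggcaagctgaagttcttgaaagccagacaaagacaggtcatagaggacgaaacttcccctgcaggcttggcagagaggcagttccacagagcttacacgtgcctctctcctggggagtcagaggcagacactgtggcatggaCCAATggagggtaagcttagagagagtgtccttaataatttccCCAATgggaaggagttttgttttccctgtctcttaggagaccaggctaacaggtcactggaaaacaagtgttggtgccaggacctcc

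The promoter of Tdrkh held 5 matches to CCAAT and 2 to GGGCGG among 25 CpG dinucleotides. Among the promoters of 7865 tested genes, 39.2% held CCAAT at least once, and 2.06% held at least 4 matches. Alcam had 1 match to CCAAT, 2 to GGGCGG and 25 CpG, against a median of 22 CpG over the tested genes. Ctsc had 0 and 1 matches with 12 CpG, and Ddo had 2 and 0 with 3 CpG. GGGCGG was found in 67.3% of the tested genes' promoters. Of the named genes other than Hdac2, 8 higher and 9 lower ones had a promoter in the table, and CCAAT was in 6 of the 8 and in 4 of the 9, GGGCGG in 5 and in 6. A match is a match of letters and not a measured binding site.

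The loss of Hdac2 was then followed for the same genes in the Hopx-null background, on the other 6 arrays. The means of those arrays took no part in choosing the genes, but their spread did, since the p-values that chose them rest on the spread pooled over all 12 arrays. Without Tnni2, 9 of the 11 higher genes also had a positive log2 fold change in double-null against Hopx-null ventricles, 6 of them with an unadjusted p under 0.05, where 3.13% of all genes reached it in that direction. Their median was 0.249 there, against 0.60 in the comparison that chose them. Without Hdac2, 8 of the 11 lower genes were also lower, 5 with an unadjusted p under 0.05, where 5% of all genes reached it in that direction. Their median was -0.266 against -0.615. Of the 22 genes, 0 reached an unadjusted p under 0.05 in the opposite direction and 0 were called.

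Tdrkh was 92.8, 84.6 and 61.6 in Hopx-null and 153, 171 and 132 in double-null ventricles (log2 0.80, SE 0.16). Sall4 was 414, 465 and 695 against 943, 933 and 736 (log2 0.76, SE 0.18), and Foxp2 was 236, 287 and 386 against 428, 408 and 476 (log2 0.56, SE 0.16). Cerox1 was 71.4, 99.8 and 64.9 against 137, 146 and 129 (log2 0.64, SE 0.14). In each of these 4 genes all double-null arrays were above all Hopx-null arrays, as they were in Alcam (log2 0.19, SE 0.07) and Ripor2 (log2 0.20, SE 0.06). That holds for the probe set used for each gene. The second Foxp2 probe set gave 346, 257 and 347 against 337, 367 and 358, with overlap (log2 0.175). The dimmer Alcam probe sets named above all overlapped there (log2 0.176, 0.0391 and 0.197). Among the lower genes, Ctsc was 651, 599.8 and 583 in Hopx-null and 448, 447 and 471 in double-null ventricles (log2 -0.42, SE 0.10). Paqr9 was 284, 371 and 398 against 129, 76.0 and 154 (log2 -1.56, SE 0.38), and Ddo was 2861, 2244 and 1775 against 1058, 1154 and 1461 (log2 -0.89, SE 0.30). Ank (log2 -0.33, SE 0.11) and Fermt3 (log2 -0.42, SE 0.15) were lower as well, all 5 without overlap. Of these 11 genes none was called there, with an adjusted p of 0.538 to 0.541. In all, 8.13% of genes reached an unadjusted p under 0.05 there.

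Several other genes of the 22 had values near 0 there. Ftcd was 261, 339 and 291 in Hopx-null and 299.8, 289.8 and 291 in double-null ventricles (log2 -0.01, SE 0.14). Phkg1 measured log2 0.01 there (SE 0.21). Insig1 measured -0.01, Klhl32 0.08 and Zfp133-ps 0.15. The difference between both comparisons was tested for every gene: 4.18% reached an unadjusted p under 0.05, among them 6 of these 22 genes, and 0 were called by limma. The 22 genes were chosen for a small p in 1 of both comparisons, and no part of this difference was tested apart from that choice.

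**Figure D3:**
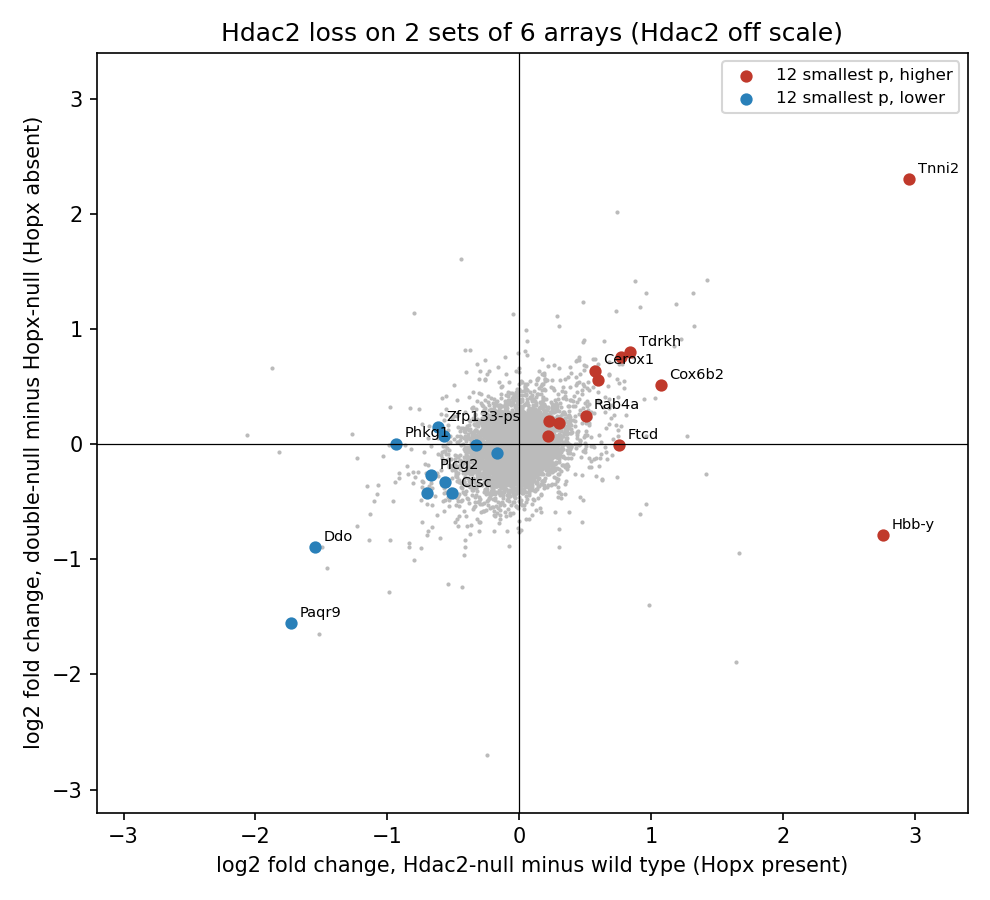
The log2 fold change for the loss of Hdac2 with Hopx present (x axis) against the same loss with Hopx absent (y axis), 1 point per gene, with the 12 smallest p of the former in each direction in red (higher) and blue (lower) and Hdac2 off the scale. Pearson's r across all genes but Hdac2 was 0.304 and Spearman's rho 0.190, given as a description, and Tnni2 at 2.96 and 2.31 stands apart from the cloud while Hbb-y is high on the x axis alone.

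Looking at all genes in the same way, 376 had every Hdac2-null array above every wild-type array (3.89%) and 550 had every one below (5.69%). Of the 376, 50 also had every double-null array above every Hopx-null array, 13.3% of the 376 and 8.36% of the 598 genes that did so there (6.19% of all genes), and 16 had every one below. Of the 550, 60 were lower without overlap in both, 10.9% of the 550 and 7.62% of the 787 there (8.14% of all), and 17 were higher. Groups without overlap in either direction made up 14.3% of genes on those arrays. With each comparison fitted on its own 6 arrays, so that not even the spread was shared, 170 genes were higher at an unadjusted p under 0.05 and 38 of them were higher in the other comparison as well. That is 22.4% of the 170 and 12.6% of the 301 there, where 3.17% of all genes were. On the lower side it was 28 of 231, 12.1% of these and 5.92% of the 473 there, against 4.98% of all. Genes vary together, so these shares are a description of the 12 arrays.

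The germline list gathers genes of meiosis, piRNA and pluripotency that are silent in most somatic tissue, and it was drawn up knowing that Tdrkh and Sall4 were among the smallest p-values here. Of 25 genes, 18 were at the floor on all 12 arrays, with no signal above 29.5, so most of this programme was not detected with or without Hdac2. Of the 6 tested, 3 were above 0 and 3 below, 0 were called, and the median was 0.365 against -0.0143 over all genes. With the floor doubled the median was 0.0259, and with the mean over all probe sets of a gene it was 0.18. Besides Tdrkh and Sall4, Meioc, which keeps germ cells in the meiotic programme, was 107, 97.1 and 136 in wild type and 167, 224 and 277 in Hdac2-null ventricles (log2 0.96, SE 0.26, adjusted p = 0.892). In Hopx-null ventricles it was 141, 109.7 and 76.3 and in double-null ones 199, 284 and 348 (log2 1.32, SE 0.26). The same 3 of the 6 tested genes thus had no overlap in either background. Among all 9667 tested genes, 50 were higher without overlap in both. Tdrkh and Sall4 were known when the list was drawn up, and Meioc was named from its values. The count of 3 therefore reflects that choice and is no test of germline genes as a group. Of 31 neuronal genes under Rest, 25 stayed at the floor on all arrays, with no signal above 38.8, and of the 4 tested 0 were called, with a median of 0.0875.

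No contractile gene of the heart passed the test, and several had narrow intervals. Of 24 cardiac sarcomere genes, 23 were tested, 7 above 0 and 16 below, with 0 called and a median of -0.0118. The 95% interval of the log2 fold change was -0.14 to 0.06 for Myh6, the alpha myosin heavy chain, and -0.04 to 0.10 for Myh7, the beta chain. Tcap, the titin cap of the Z-disc, was 1452, 1285 and 906 in wild type and 807.5, 851 and 1088 in Hdac2-null ventricles, with overlap (log2 -0.39, SE 0.17, adjusted p = 0.925). Of 13 fetal and stress genes, 11 were tested, 8 above 0 and 3 below, and 0 were called. Their anchor genes, the natriuretic peptides, were less precisely measured: Nppa was 28863, 26431 and 16674 against 20061, 20572 and 21454, an interval of -0.62 to 0.27, and that of Nppb was -0.09 to 0.67.

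Cardiac transcription factors gave 21 tested genes of 25, 10 above 0 and 11 below, with 0 called and a median of -0.00493. Gata4, a zinc-finger factor at the core of the heart programme, had an interval of -0.13 to 0.20. Hopx, the homeodomain-only protein whose loss is the other arm of the series, was 8653, 8577 and 12221 in wild type and 12209.6, 12240.1 and 11677 in Hdac2-null ventricles. Wild type 1 and 2 were low and wild type 3 was level with the null arrays (log2 0.31, SE 0.11, adjusted p = 0.893). A second, dimmer Hopx probe set was 696.5, 520.2 and 1145 against 1211, 1558 and 1306, without overlap and with a larger log2 difference of 0.86. Without wild type 3 the log2 fold change of Hopx was 0.48 and its adjusted p 0.0339, and 4 genes were called in place of 2, with Hopx and the membrane dipeptidase Dpep1 added, the latter named after its value was seen. Inpp5f, a phosphoinositide phosphatase of heart muscle, had an interval of -0.43 to 0.47.

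No cell cycle gene passed the test. Of 32 genes of the G1/S transition and DNA replication, 30 were tested, 11 above 0 and 19 below, and of 25 genes of G2/M and mitosis, 24 were tested, 13 above and 11 below. In both lists 0 were called, and the medians were -0.0425 and 0.0111. Ccne2, the cyclin E2 that drives entry into S phase, was 1513, 1300 and 1319 in wild type and 1298, 1101 and 1018 in Hdac2-null ventricles. It had no overlap by a narrow margin, with a log2 of -0.28 (SE 0.13, adjusted p = 0.925), and in double-null against Hopx-null ventricles it measured 0.15. Ccnd2, the D-type cyclin of heart muscle, had an interval of -0.23 to 0.10.

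Most calcium handling and ion channel genes had a log2 fold change below 0, and none passed the test. Of 28 genes, 21 were tested, 4 above 0 and 17 below, with 0 called and a median of -0.0717, where 55.1% of all genes lay below 0. On the other arrays 8 were above 0 and 13 below, with a median of -0.0209. Kcnj11, the pore subunit of the ATP-sensitive potassium channel, was 844, 861 and 703 in wild type and 595, 594 and 699 in Hdac2-null ventricles (log2 -0.35, SE 0.12, adjusted p = 0.893). Wild type 3 and Hdac2-null 3 nearly met, yet the groups did not overlap. On the other arrays Kcnj11 was 801, 883 and 776 against 587, 609.6 and 702 (log2 -0.38, SE 0.12). Kcnd2, a potassium channel of the transient outward current, was 263, 138 and 197 against 125, 80.7 and 133 (log2 -0.79, SE 0.25, adjusted p = 0.893), and measured -0.28 on the other arrays. Sln, the small inhibitor of the calcium pump in atria, measured -1.27 with an SE of 0.87.

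Genes of the mitochondrial respiratory chain had 29 of 30 members tested, 4 above 0 and 25 below, with 0 called. The differences were small, with a median of -0.0363 and a range of -0.175 to 0.0719. On the other arrays 6 were above 0 and 23 below, with a median of -0.0538, where 47% of all genes were above 0 and 52.5% below. Cox5b, a subunit of cytochrome c oxidase, was 39074, 39116 and 37721 in wild type and 37046, 37252 and 37709.5 in Hdac2-null ventricles, without overlap by a narrow margin. Of 30 genes of Notch, BMP and neuregulin signalling, which pattern the ventricular wall, 24 were tested, 15 above 0 and 9 below, with 0 called and a median of 0.038. Tgfb2, a TGF-beta ligand, was 2900, 3040 and 4147 against 4504, 4366 and 4519, with all null arrays higher (log2 0.43, SE 0.14, adjusted p = 0.893). Notch1, the receptor of the endocardium, was 3667, 3739 and 3838 against 4232, 4589 and 3860 (log2 0.17, SE 0.10, adjusted p = 0.925).

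**Figure D4:**
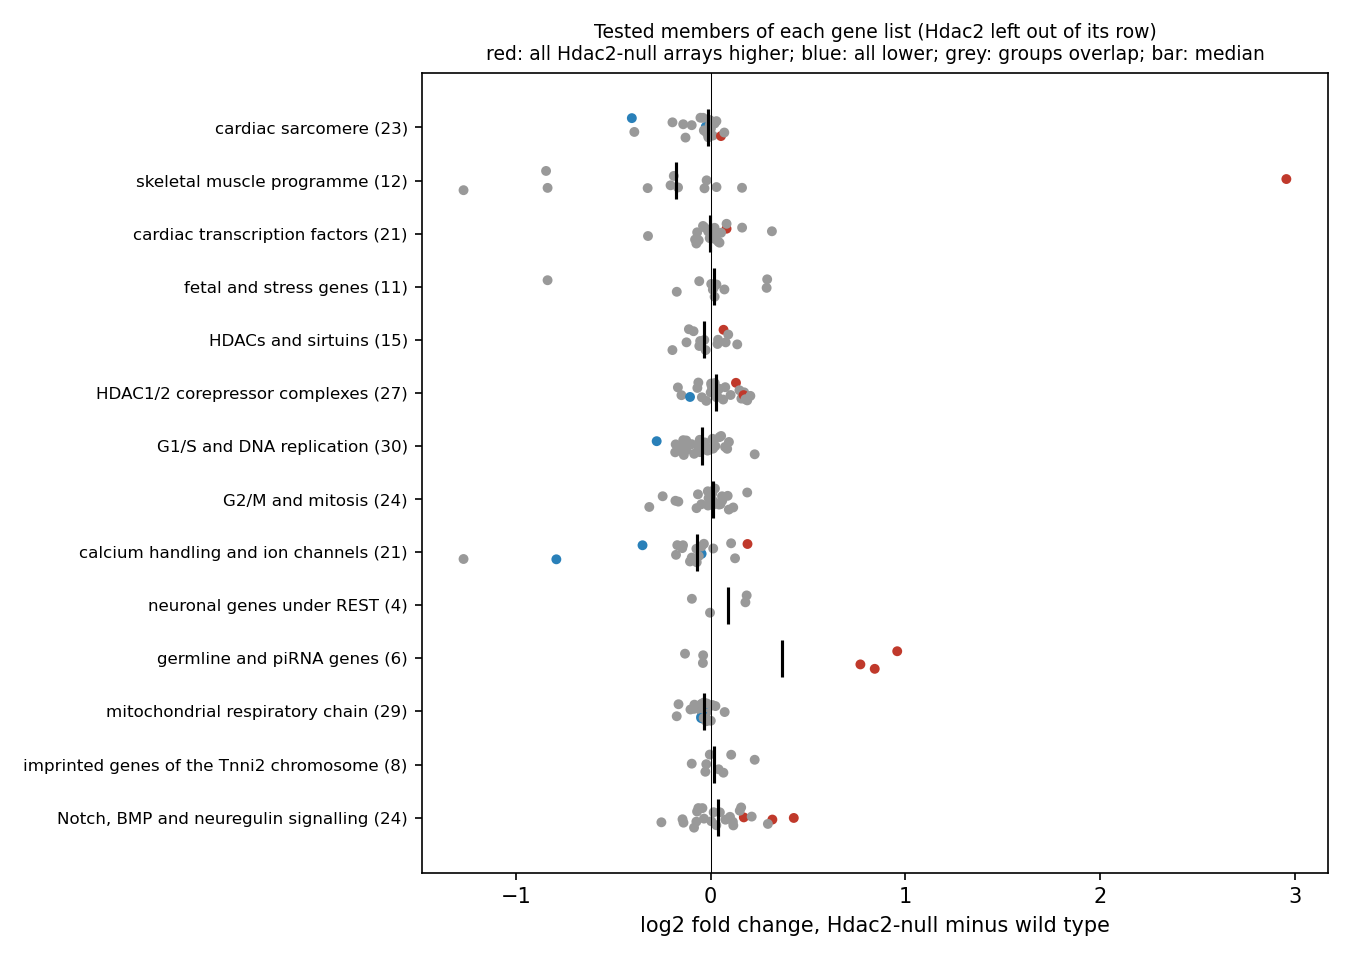
Log2 fold changes of Hdac2-null against wild-type ventricles for the tested members of each gene list, 1 point per gene, with the number tested in parentheses, the median as a bar and Hdac2 left out. Red points have all null arrays higher, blue ones all lower and grey ones overlap, and Tnni2 at 2.96 and the germline genes Tdrkh, Sall4 and Meioc lie to the right of the other points of their lists.

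Markers of the cell types in the ventricle gave 0 calls in every list. The 10 ventricular cardiomyocyte markers had a median of -0.00206, 4 above 0 and 6 below, and their summed signal was 268230 to 273390 units in wild type and 264934 to 271033 in Hdac2-null ventricles. All 9 tested atrial markers of 10 were below 0 (median -0.174), with sums of 66666 to 79825 against 62143 to 67270, and on the other arrays 5 were above 0 and 4 below. Without wild type 1 the atrial median was -0.0271, and without wild type 2 or 3 or Hdac2-null 1 it was -0.31, -0.33 or -0.26. Myl7, the atrial light chain, was 12541, 10216 and 9628 against 6666, 9531 and 8362 (log2 -0.41, SE 0.22). All 8 fibroblast markers were below 0 (median -0.0964), with sums of 72689 to 75971 against 69144 to 71468 that do not overlap, and Col3a1, a fibrillar collagen, measured -0.11 (SE 0.03, adjusted p = 0.893). On the other arrays 2 fibroblast markers were above 0 and 6 below.

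Of 10 leukocyte and macrophage markers 5 were tested and the other 5 were at the floor. The summed signal of the tested 5, most of it from Csf1r, was 6669 to 7822 in wild type and 5725 to 6183 in Hdac2-null ventricles, without overlap. Of the 5, 4 were below 0 and 1 was above, at 0.0424, and the median was -0.266. Csf1r, the receptor that sustains macrophages, was 4744, 4352 and 4689 against 4141, 3803 and 3730 (log2 -0.24, SE 0.07, adjusted p = 0.892). Tyrobp and Fcer1g, signalling adaptors of myeloid cells, measured -0.28 (SE 0.10) and -0.39 (SE 0.15). On the other arrays 4 of the 5 were below 0 and 0 had groups without overlap. Ctsc, Fermt3 and Plcg2, named above among the lower genes, are expressed in leukocytes, and the part of leukocyte content in their values was not tested. Endothelial and endocardial markers had 10 of 10 tested, 5 above 0 and 5 below (median 0.0196). Smooth muscle and pericyte markers had 8 of 8 tested, 4 on each side of 0, and epicardial markers had 6 of 7 tested, 1 above 0 and 5 below (median -0.0533). Of 7 liver markers 3 were tested, with sums of 21 to 39 in wild type and 52 to 569 in Hdac2-null ventricles, the highest on Hdac2-null 3.

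Crossing the floor as a group was rare. On all 3 Hdac2-null arrays but on none of the wild-type arrays, 5 genes (0.0517%) were above it: Tdrkh, Vnn1, Pgbd1, Nme4 and Nxpe3. Vnn1, a pantetheinase, was 28.4, 19.6 and 18.96 in wild type and 179.6, 158 and 107 in Hdac2-null ventricles, at least 1.75-fold higher (adjusted p = 0.892). Of these 5, Tdrkh alone was also higher without overlap in double-null against Hopx-null ventricles. In the other direction 7 genes (0.0724%) were above the floor in wild type alone: Hdac2, Klhl32, Mfsd4b1, 4732440D04Rik, Cst9, Osbpl10 and 1700096K18Rik. Of these 7, Hdac2 alone was lower without overlap on the other arrays.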

How the data were processed

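Total RNA of embryonic ventricles was hybridised to single-colour arrays, 3 per genotype. The authors deposited 1 linear intensity per probe set and array. The submitters' processing notes name MAS5, but 37.59% to 37.89% of probe sets exceed the floor and the rest crowd near a common low value, so the method is not settled, and the deposited intensity was used without further normalisation. Of 45101 probe sets, the 34945 annotated with 1 gene were used, and 34741 matched the reference gene table of GRCm38.p6. A floor of 82.5 units (0.1 times the 2% trimmed mean, averaged over arrays) replaced lower intensities ahead of the log2 step, so fold changes of dim genes are understated. Each gene took its probe set with the highest mean, and 9667 genes above the floor on at least 1 array were tested.

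1 coefficient per genotype was fitted over 12 arrays (8 residual degrees of freedom) with limma 3.58.1 in R 4.3.3, with an intensity trend and Benjamini-Hochberg adjustment over all genes. Genes were called at an adjusted p under 0.05. Double-null against Hopx-null, and the difference between both comparisons, came from the same fit. Unadjusted p-values are limma's as well. Where all arrays of 1 group were under the floor and all of the other above it, a fold is a lower bound.

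Text genes are Hdac2, Hopx and Hdac1, called genes, the 12 smallest p in each direction, up to 3 members per list, a set of cardiac genes and neighbours of called genes. The comparison, genes and lists were chosen with earlier results of these data known. Meioc, Vnn1 and the other genes named for crossing the floor, Tnni1, Tnni3, Myl2, Acta1, Dpep1 and members of lists named for groups without overlap stand outside that rule or were picked from their values. Deviations of same-numbered arrays from their group means correlated at r of 0.33, -0.25 and -0.15 between wild type and Hdac2-null and 0.29, -0.11 and 0.22 between Hopx-null and double-null. Not every pair was positive, so no pairing was used, although replicate 1 was Xist-high in all 4 groups. Alternatives covered the floor, filter, normalisation, probe set choice, variance model, array weights, samples fitted, replicate block, Xist as a covariate and leaving out each array. The number of arrays limits the precision.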

Additional observations from a re-analysis of the deposited data

Results flagged for a closer look

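Emcn, the endothelial sialomucin endomucin, differed between both backgrounds. It was 1341, 1523 and 1456 units in wild type and 1754, 1856 and 1642 in Hdac2-null ventricles, all null arrays higher (log2 0.28, SE 0.10). In Hopx-null ventricles it was 1759, 1497 and 1516 and in double-null ones 1322, 1392 and 1187, all of the latter lower (log2 -0.29). The difference between both log2 fold changes was -0.57 (SE 0.13, adjusted p = 0.942 over all genes in limma), so it did not pass. Its unadjusted p was among the 4.18% of genes under 0.05.

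Nt5dc1, a gene of the 5′-nucleotidase domain family among the neighbours of Hdac2, moved the other way. It was 687, 742 and 724 in wild type and 618, 572 and 668 in Hdac2-null ventricles, and 677, 582 and 725 in Hopx-null and 739, 801 and 801 in double-null ones. The groups did not overlap in either comparison, lower in the former and higher in the latter. The difference between both log2 fold changes was 0.46 (SE 0.15, adjusted p = 0.942), which did not pass either.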

How the results depend on the processing

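The number of called genes in Hdac2-null against wild type was 2 under most alternatives and 1, Hdac2 alone, without the floor and with the mean over all probe sets of a gene. Leaving out 1 array at a time gave 2 to 4, the highest without wild type 3. Hdac2 kept its call throughout, at -5.907 to -5.8198 without each array. Tnni2 was called, log2 2.70 to 3.24, without each array of this comparison, and at log2 1.97 with the floor doubled (adjusted p = 0.0168). In double-null against Hopx-null the count was 1 without the floor, with the floor doubled, with the mean over probe sets and with only the 6 arrays of the comparison, and 1 to 3 without each array. For the difference between both comparisons it was 0 to 1 without each array, Hopx being called without wild type 3. With the replicate block, 2 genes were called in Hdac2-null against wild type, 1 in double-null against Hopx-null, where Tnni2 lost its call, and 0 for the difference. Replicate 1 was Xist-high in all 4 groups, and so was wild type 2, so the block also carries part of the sex difference. Of the 24 genes with the smallest p, 0 changed sign and 0 gained a call under those of the 16 alternatives that tested them. Cerox1 and Klhl32 were not tested with the floor doubled, and 2 calls were lost, both of Tnni2 (without the floor and with the mean over probe sets).

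The sign turned for some uncalled genes. With the mean over probe sets, Ccnd2 measured 0.0066 and Rcor3 0.24. Gata4 measured -0.0269 with array weights and Inpp5f -0.0226 with Xist as a covariate. Without each array, the log2 fold change ran from -0.0715 to 0.0309 for Ckm, -0.0341 to 0.1158 for Gata4, -0.0037 to 0.1639 for Hdac1, -0.2472 to 0.0826 for Hdac3, -0.225 to 0.1596 for Inpp5f, -0.0826 to 0.0091 for Myh6 and -0.1094 to 0.0101 for Tnni3. Among lists, the germline median was 0.0259 with the floor doubled and 0.1826 with the mean over probe sets, and the atrial median was -0.0271 without wild type 1. The causes were not tested. Signals near the floor limit what can be said of dim genes.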

Other observations

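The genes below were chosen after their values were seen. They come from no fixed list, and none was called. S100a8, a calcium-binding protein abundant in neutrophils, was 660.0, 588 and 1044 units in wild type and 1756, 2762 and 1077 in Hdac2-null ventricles, without overlap by a narrow margin (log2 1.23, SE 0.46, adjusted p = 0.893 by limma). Its partner S100a9 was 457, 639 and 1116 against 1556, 2830 and 1173, again without overlap. Stfa3, a cysteine protease inhibitor of the stefin A family, was 121, 122 and 214 against 379.5, 855 and 188, and Stfa2l1 of the same family was 270.3, 235 and 478 against 600.1, 1272 and 472, both with overlap. In all 4 genes wild type 3 was the highest wild-type array, Hdac2-null 2 the highest null array and Hdac2-null 3 the lowest null array. In double-null against Hopx-null ventricles the log2 fold changes were 0.91 for S100a8, 1.02 for S100a9, 1.43 for Stfa3 and 1.22 for Stfa2l1. The macrophage genes Csf1r, Tyrobp and Fcer1g had lower values on the same null arrays.

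A few genes took values far apart on arrays of 1 genotype. Slc15a2, a peptide transporter, was 4.48, 4.46 and 1481 in wild type and 4.46, 1897 and 1954 in Hdac2-null ventricles. Over the other arrays it was 991, 63.4 and 1041 in Hopx-null and 4.49, 244 and 28.4 in double-null ventricles. Tmem18, a nuclear membrane protein, was 2919, 298 and 284 in wild type and 2857, 1472 and 1892 in Hdac2-null ventricles. These levels did not follow genotype, and their cause was not tested.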
